A study of Gallus gallus with 4 samples.

Results

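SFRP1, secreted frizzled-related protein 1, is a secreted antagonist of Wnt signaling. Wnt ligands bind frizzled receptors at the cell surface together with an LRP co-receptor, and in the canonical branch this stabilizes β-catenin, which then acts with TCF/LEF factors in the nucleus. SFRP1 carries a cysteine-rich domain related to the ligand-binding domain of the frizzled receptors and can bind Wnt ligands outside the cell. In vertebrate embryos Wnt signals act in the patterning of the neural plate and in the induction and expansion of the neural crest, the cell population at the neural folds that gives rise to much of the face.

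The gene was studied through the 12 exon parts that the count table holds under its identifier, ENSGALG00000003473, out of 220717 exon parts in all. An exon part is a stretch between neighboring annotated exon boundaries, and the parts of a gene are numbered along the chromosome. The samples were cranial headfolds, pooled by 23, of chicken embryos of the Special black strain. Their incubation was given as 27 hr and their stage as Hamburger-Hamilton 8 to 9. The study's methods describe the embryos as at the neural fold stage when exposed, so the stage at collection may have been later. Alcohol embryos received 0.43 mmol ethanol, given in the study's methods as 52 mM alcohol for 90 min, control embryos received isotonic saline, and both were collected 6 hr after the start of the exposure. Each group was sequenced in 2 lanes with paired reads of 75 bases, from mRNA selected on poly-T beads.

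Control was sequenced on lanes 6 and 7 of one run and alcohol on lanes 5 and 6 of another, so an effect of the run cannot be told apart from that of the treatment. The lanes held 15388474 to 20951322 counts. Genes of the mitochondrial genome made up 44.2% of either control lane but 33.3% and 32.9% of the alcohol lanes, and their part in the results was not tested. The control lanes differed by little more than sampling noise (chi-square per degree of freedom of 1.04 over 16670 genes). This was below the limit of 1.1 set for summing lanes, so they were counted as 1 library. The alcohol lanes differed more (5.73) and were kept as 2. The labels do not say that lanes of a group were separate pools, so the p-values measure a spread between lanes that may be technical. In every edgeR test below with control as 1 library, control has no spread of its own and is assumed to vary like alcohol. The spread is then that of the 2 alcohol lanes. edgeR draws it toward a trend over all features tested, so an SE reflects other features besides the one named. A permutation test of 2 lanes against 2 cannot go below a two-sided p of 0.333 and was not used. In pooled tissue, a difference in the number of SFRP1-expressing cells and one in RNA per cell cannot be told apart. The files pair no identifiers with names. Of 69 symbols on a list of Wnt ligands, receptors, inhibitors and targets, SFRP1 alone could be paired with an identifier, through the study's own tables, and none of 39 marker symbols for neural plate, neural crest, mesoderm, endoderm, heart and blood could, so the composition of the tissue was not checked.

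SFRP1 spanned 10891 bases of the minus strand of chromosome 22 (2593802 to 2604692, Gallus gallus 5.0), so that part 1 lay at its 3' end. Its parts formed 4 exon blocks separated by 3 introns. The last exon held part 1 (2593802 to 2594424, 623 bases) and part 2 (2594425 to 2596849, 2425 bases), which abut. Part 3 (2600797 to 2600874, 78 bases) and part 4 (2603033 to 2603132, 100 bases) each stood alone. The block at the 5' end, 695 bases long, was cut into parts 5 to 12, of which part 8 (2604243 to 2604517, 275 bases) was the longest. Parts 1 and 2 made up 77.7% of the summed part length of 3921 bases and took 97.6% of the gene's 29185 counts. Of the 12 parts, 5 were shorter than a read, and parts 9, 10 and 11, of 3, 1 and 27 bases, had 0 counts in every lane. Taken as at most 3 counts a lane, those 0 counts allow a share of up to 0.0336% to 0.0493% of the gene's counts (95% Wilson upper limits 0.0430% to 0.0631%), for counting error only, and a read longer than the part says nothing on whether these bases were transcribed. With at least 10 counts over the lanes, 8 parts were tested, and part 4, with 1 count in control replicate 2 and 1 in alcohol replicate 2, was not.

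The gene as a whole had more counts in the alcohol lanes. The sum over its parts was 6095 and 6081 counts for control and 8073 and 8936 counts for alcohol. In CPM (counts per 1000000 counts of the lane) this was 290.9 and 291.5 for control and 524.6 and 525.9 for alcohol. Both alcohol lanes lay above both control lanes, and the SD between lanes of a group was 0.41 CPM in control and 0.91 CPM in alcohol (n = 2 lanes each). These SDs are smaller than counting error alone would give, so they say little on precision. By this scaling, library size alone, the median log2 change over all genes tested was 0.36, and 39.9% were called higher (edgeR adjusted p below 0.1). How many other genes had lanes so separated was not counted. Both alcohol lanes also stood above both control lanes after leaving the mitochondrial genome out of the total, at 786.5 and 784.0 against 521.8 and 522.1 CPM. With library sizes scaled by TMM (trimmed mean of M-values, which assumes that most genes do not change) the levels were 466.2 and 464.1 CPM in alcohol and 328.9 and 329.0 CPM in control. By counts, SFRP1 ranked 255th and 252nd among the genes with counts in the control lanes and 131st and 125th in the alcohol lanes, and per base of its parts it ranked 764th, 751st, 394th and 398th.

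**Figure D1:**
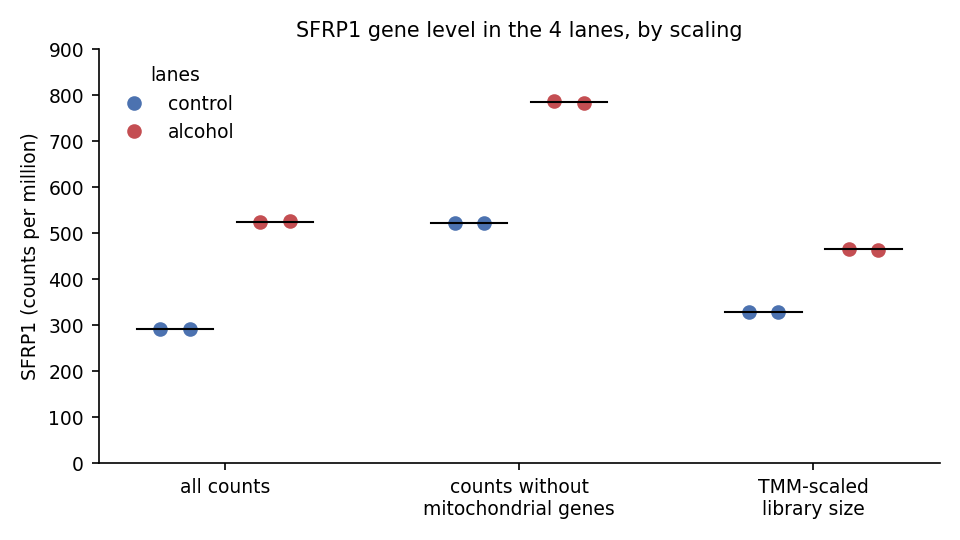
SFRP1 level in CPM (vertical axis) in each lane (points) under 3 scalings of the library (horizontal axis), with the mean of a group's 2 lanes as a line. Under each of these scalings both alcohol lanes lie above both control lanes. Lanes of a group lie closer together than counting error alone would give, so their closeness says little on precision.

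SFRP1 abundance rose by 0.50 ± 0.14 on the log2 scale (SE, 1 control and 2 alcohol libraries, spread from the alcohol lanes drawn toward the trend over all genes, edgeR quasi-likelihood test, Benjamini-Hochberg adjusted p = 0.0101). Over all genes tested, 15.5% (2813 of 18093) rose and 11.6% (2104) fell by the same rule of an adjusted p below 0.1, and 80.0% of genes had a smaller log2 change than SFRP1. The size depended on the scaling, from 0.26 to 0.85. With the TMM factors of the exon parts in place of those of the genes the change was 0.26, and the call was lost (edgeR adjusted p = 0.319), while library size alone gave 0.85. These scalings moved the median of all genes to -0.23 and 0.36 from 0.01, and SFRP1 stood 0.48 and 0.49 above that median. Since such a shift is nearly the same for every gene, this distance could hardly change and adds no support. With TMM scaling of the genes the gain lay largely in part 2, and without this part the sum changed by 0.12 ± 0.15 (edgeR adjusted p = 0.637). Other scalings were not run for this sum. Part 1, which made up most of it, rose by 0.38 with library size alone (edgeR adjusted p = 0.0779).

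Few abundant genes rose as much as SFRP1, while falls of that size were more frequent, with 10 genes between -0.6 and -0.5 alone (TMM scaling). With SFRP1 included, 175 genes had at least its number of counts over the lanes, and 2 of them had a larger log2 change. This count was the same under each of the 4 scalings compared. A scaling shifts all genes nearly alike, so the count could hardly differ between them and the sameness adds no support. With TMM scaling of the genes 8 of the 175 rose and 75 fell, where 15.5% of all genes rose and 11.6% fell. With library size alone 64 rose and 24 fell (39.9% and 3.33% of all genes), and without mitochondrial genes in the library size 14 rose and 53 fell (18.9% and 7.26% of all genes). With the factors of the exon parts 0 rose and 104 fell (8.11% and 26.2% of all genes, edgeR, with 1 of the 175 higher at an unadjusted p under 0.05).

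Most of the gene's reads came from part 2, the upstream stretch of the last exon. Control lanes had 4375 and 4319 counts in it, alcohol lanes 6369 and 6897. Its share of the gene's counts was 71.8% (95% Wilson interval 70.6 to 72.9) and 71.0% (69.9 to 72.2) in control and 78.9% (78.0 to 79.8) and 77.2% (76.3 to 78.0) in alcohol. As a mean over lanes the share was 71.4% ± 0.53 in control and 78.0% ± 1.21 in alcohol (SD, n = 2 lanes each). All intervals given here cover counting error only.

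Part 1, the distal stretch that ends at the annotated 3' end, did not gain in the same proportion. Control lanes had 1599 and 1653 counts in it, alcohol lanes 1509 and 1762, and as a share of the gene 26.2% (25.1 to 27.4) and 27.2% (26.1 to 28.3) in control against 18.7% (17.9 to 19.6) and 19.7% (18.9 to 20.6) in alcohol. Both alcohol lanes thus had lower shares than both control lanes, and how many parts of other genes had lanes so separated was not counted.

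Part 8, the longest part of the 5' block, had few counts and the opposite direction from part 1. Control lanes had 66 and 54 counts in it, alcohol lanes 121 and 172. Its share was 1.08% (0.852 to 1.38) and 0.888% (0.681 to 1.16) in control and 1.499% (1.26 to 1.79) and 1.92% (1.66 to 2.23) in alcohol. The intervals of control replicate 1 and alcohol replicate 1 overlapped.

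**Figure D2:**
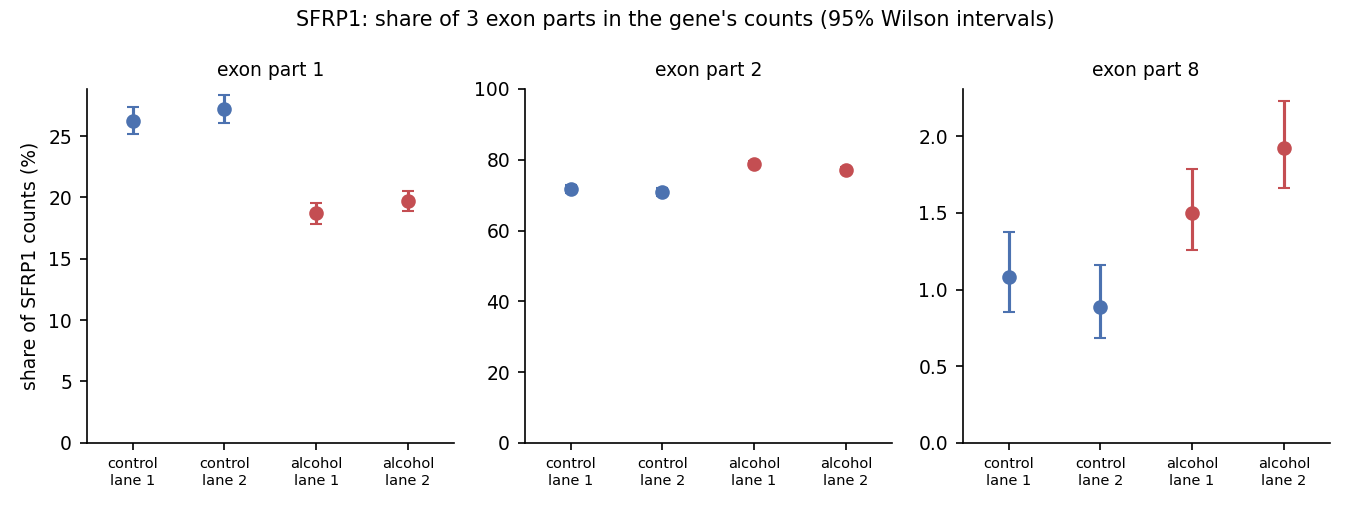
Share of SFRP1 counts (percent, vertical axes, each starting at 0) in exon parts 1, 2 and 8 for each of the 4 lanes, with 95% Wilson intervals as bars. The alcohol lanes are lower for part 1 and higher for parts 2 and 8, and the axes differ in scale.

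The other parts of the gene were thinly covered. Part 5 held 30 and 34 counts in control and 45 and 61 in alcohol, part 6 held 10 and 10 against 13 and 19, and part 12, which reaches the annotated 5' end, held 6 and 6 against 8 and 14. Parts 3 and 7 held 2 to 6 counts in any lane. The 5' block together had 116 and 106 counts in control, 189 and 271 in alcohol, or 1.90% (1.59 to 2.28), 1.74% (1.44 to 2.10), 2.34% (2.03 to 2.69) and 3.03% (2.70 to 3.41) of the gene. The last exon took 98.0%, 98.2%, 97.6% and 96.9% in the same order of lanes.

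Per length, the coverage fell steeply from the last exon to the 5' block in each lane. The density of the last exon was 93.5 and 93.9 CPM per kilobase in control and 168.0 and 167.2 in alcohol, and that of the 5' block was 7.97 and 7.31 in control and 17.7 and 22.9 in alcohol. Within the last exon the density of part 1 exceeded that of part 2 in the control lanes, by a ratio of 1.42 and 1.49. In the alcohol lanes the density of part 1 was slightly below that of part 2, at ratios of 0.922 and 0.994.

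**Figure D3:**
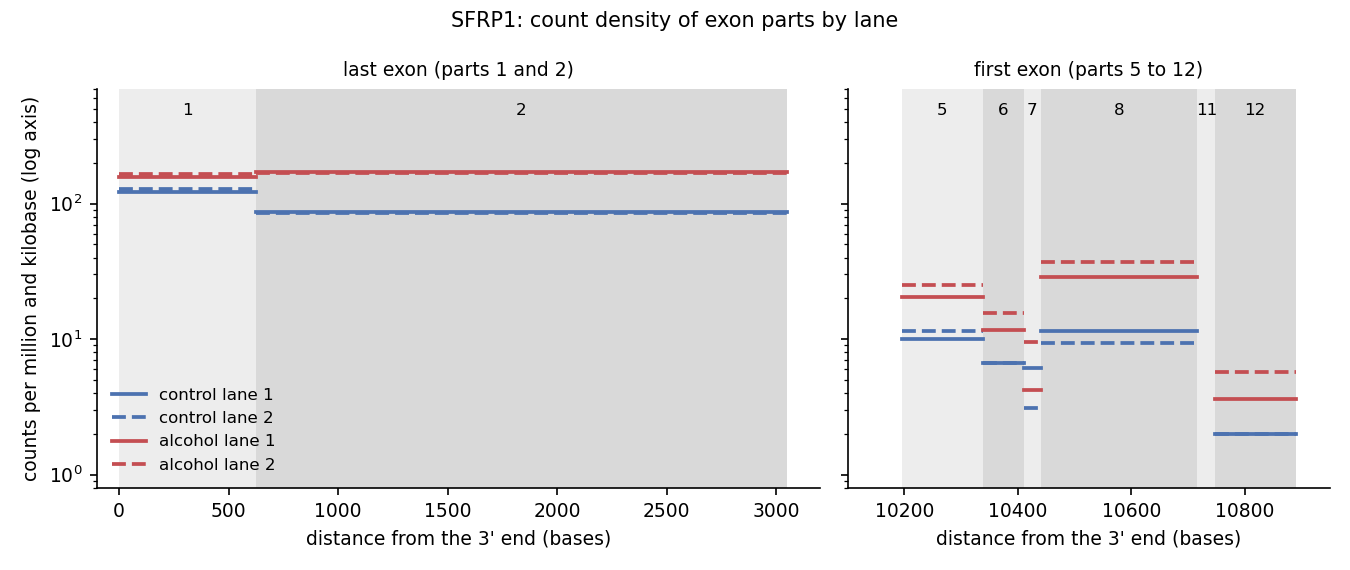
CPM per kilobase (log axis) of the exon parts of SFRP1 in each lane against the distance from the annotated 3' end in bases, for the last exon (left) and the 5' block (right), with parts as shaded bands. Part 1 lies above part 2 in the control lanes only, and parts 9 to 11, which had 0 counts, carry no line.

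Usage in edgeR is the change of a part relative to its whole gene, that part included, and it was tested for 8 of the 12 parts. Part 2, with most of the gene's counts, is thus compared largely with itself. Part 8 was the single part called, with a usage change of 0.80 ± 0.25 (log2, SE, edgeR diffSpliceDGE adjusted p = 0.0634, with control as 1 library and the spread from the alcohol lanes). Over all parts tested, 4.87% (4590 of 94274) were called. Of these calls 89.5% were higher (4108) and 482 were lower, and the median usage change of all parts tested was 0.21, not 0. Part 1 had the lowest value, -0.48 ± 0.18 (edgeR adjusted p = 0.141), and part 2 had 0.13 ± 0.18 (edgeR adjusted p = 0.826). The remaining 5 tested parts had values between -0.26 and 0.38 with standard errors of 0.29 to 0.83. The call of part 8 was lost without control replicate 2 (0.66, edgeR adjusted p = 0.231) and when parts with fewer than 10 counts were kept in (0.79, edgeR adjusted p = 0.117). With part 2 left out of the gene, the usage change of part 1 was -0.095 ± 0.18 (edgeR adjusted p = 0.894). That of part 8 was then 1.18 ± 0.25 (edgeR adjusted p = 0.00346). Part 1 held most of the counts that remained, 6523 over the lanes against 413 for part 8. In this fit part 1 was thus compared largely with itself, so its value near 0 does not show that its fall was absent. Part 8 was compared largely with part 1.

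The model of DEXSeq, which sets each part against the sum of the other parts and takes every lane as a library, gave more calls in the gene. In this model part 1 fell by 0.62 ± 0.17 (adjusted p = 0.0227), part 2 rose by 0.51 ± 0.17 (adjusted p = 0.0842) and part 8 rose by 0.80 ± 0.28 (adjusted p = 0.0992). Parts 1 and 2 held 97.6% of the gene's counts, so each was set almost wholly against the other. Their 2 calls, and the ratio of these parts given below, are therefore largely the same contrast and not separate results. It called 3.89% (3668 of 94274) of all parts. The same model with the control lanes summed called 0 of the 8 parts, with 2 at an unadjusted p under 0.05 (0.0187 for part 1 and 0.0205 for part 8).

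For abundance on its own, scaled by the TMM factors of the exon parts, part 8 was again the single part called, at 1.05 ± 0.26 (log2, SE, edgeR adjusted p = 0.00169), where 14.2% (13888 of 98031) of all parts were called in either direction. Part 2 had 0.38 ± 0.22 (edgeR adjusted p = 0.278) and part 1 had -0.22 ± 0.20 (edgeR adjusted p = 0.559). These values moved with the scaling. With the TMM factors of the gene counts, 3 parts were called, part 2 at 0.62, part 5 at 0.74 and part 8 at 1.29, and part 1 stood at 0.02, whereas with library size alone part 1 rose by 0.38 (edgeR adjusted p = 0.0779).

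**Figure D4:**
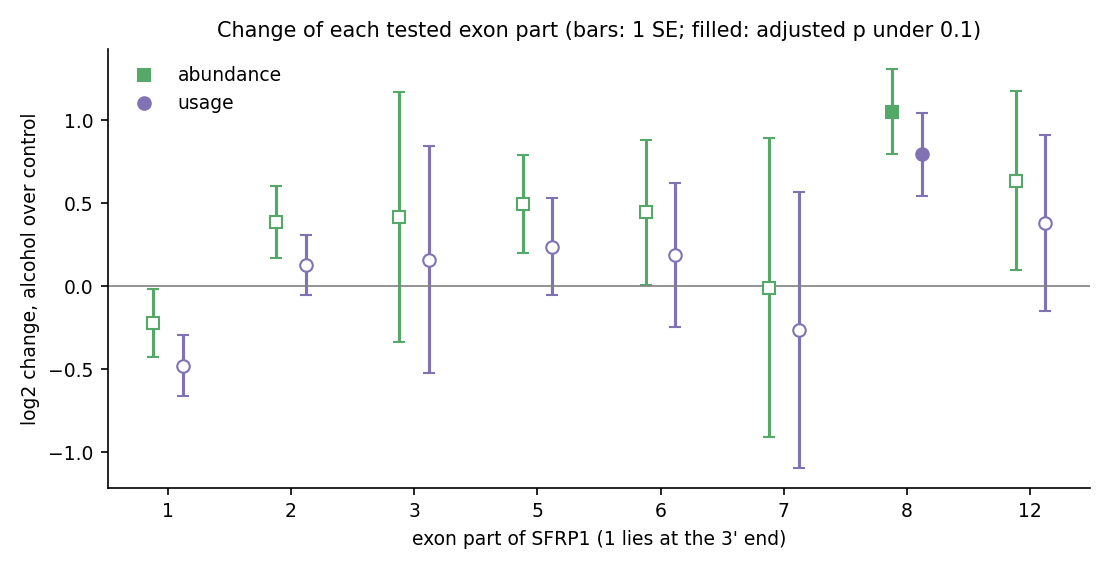
Log2 change (alcohol over control, vertical axis) of abundance (squares) and usage (circles) for each tested exon part of SFRP1, with bars of 1 SE and filled symbols where the adjusted p was under 0.1. Part 8 is filled for both measures, and part 1 has the lowest usage value.

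The ratio of parts 1 and 2 is taken within a lane and does not depend on the scaling of the library. In control, part 2 held 2.74 and 2.61 times the counts of part 1, and in alcohol 4.22 and 3.91 times. Lanes of a group differed little in this ratio (Fisher's exact test, two-sided, p = 0.267 between the control lanes and p = 0.0555 between the alcohol lanes, which compares libraries and not treatments). The ratio of the distal to the proximal part fell by 0.60 ± 0.09 on the log2 scale (SE from the spread of the alcohol lanes with control as 1 library, edgeR quasi-likelihood test with the library as a term, adjusted p = 0.0141). This test was chosen after the counts of the parts had been seen. It was run on 835 genes whose last exon was split into abutting parts, each of at least 75 bases and at least 100 counts.

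The shift was toward the side on which more of these genes lay. Of the 835 pairs, 12.1% (101) were called, 72 with a lower and 29 with a higher share of the distal part, and the median change was -0.09. A change below that of SFRP1 was found in 51 pairs (6.11%), and in 7 of the 209 pairs with at least 1000 counts in each part. The change in SFRP1 was -0.57 without control replicate 2 and -0.64 without control replicate 1, and remained called in both (edgeR adjusted p = 0.0293 and 0.0184), as it did among the 209 pairs alone (edgeR adjusted p = 0.0782).

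**Figure D5:**
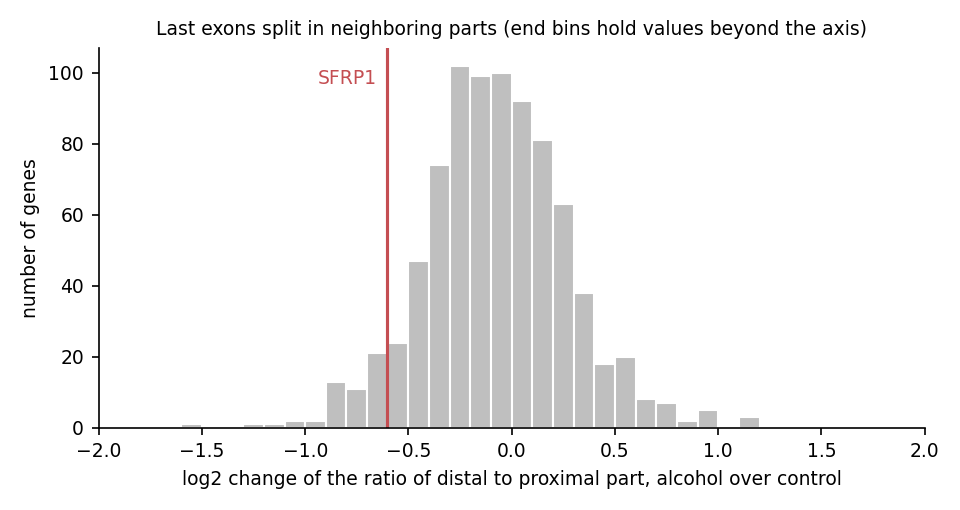
Number of genes (vertical axis) by log2 change of the ratio of distal to proximal part of the last exon, alcohol over control (horizontal axis), for 835 genes, with SFRP1 as a vertical line at -0.60. The line lies in the lower tail, with 51 genes below it.

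The usage change of parts also moved with position in the gene over the whole table. With the parts of each gene divided into 5 equal classes by their order from the 5' end, the median usage change was 0.38, 0.42, 0.40, 0.24 and -0.04. Part 8 lay in class 2, where 70.2% of the 16437 tested parts had a lower usage change, and part 12 in class 1, where 49.7% had. Part 1 lay in class 5, at the 3' end, where 10.7% of 25335 parts had a lower value, and part 2, in the same class, had 69.2% below it. How much of the change in SFRP1 follows from this trend was not tested.

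The genes beside SFRP1 on chromosome 22 differed from it in level and in change. On the side of lower coordinates the nearest gene, on the same strand and 28075 bases away, had 21 and 9 counts for control and 10 and 25 for alcohol (log2 change 0.23 ± 0.41, edgeR adjusted p = 0.739). The nearest gene on the other side, on the plus strand and 10483 bases away, had 2113 and 2123 counts in control and 2142 and 2259 in alcohol (0.07 ± 0.15, edgeR adjusted p = 0.778). Neither overlapped SFRP1 in the count table. A later RefSeq assembly of the chicken (GRCg7b) places ZMAT4 and GOLGA7 on its sides and annotates ZMAT4 as overlapping it, and since the counting ignored strand, reads of an overlapping transcript could not be told from those of SFRP1. Of the 129 genes of chromosome 22 that were tested, 12 rose (9.30%) and 19 fell (14.7%) with TMM scaling, against 15.5% and 11.6% of all genes, and 13 had a larger log2 change than SFRP1.

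Among 7361 genes with at least 1000 counts over the lanes, those whose pattern was most like that of SFRP1 were found by the distance between log2 CPM values of the 4 lanes centered on each gene's mean (TMM scaling, pseudocount of 1 count). The nearest was ENSGALG00000042552 on chromosome 10 at a distance of 0.0034, with 1280 and 1275 counts in control and 1698 and 1879 in alcohol, followed by ENSGALG00000007663 on chromosome 13 at 0.020, with 547, 545, 737 and 806. The next 3 lay at 0.022 to 0.025, and 178 genes lay within 0.1, where the median over all genes was 0.59. Since 4 lanes hold 1 contrast, this distance orders genes mainly by the size of that contrast.

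The authors assigned SFRP1 to a group named NC development, which pools Wnt with Notch, Hedgehog and other signaling pathways and holds 113 genes in their table. SFRP1 had the fourth highest counts of these genes over the lanes. Of the 107 genes tested, 27 rose (25.2%) and 7 fell (6.54%), against 15.5% and 11.6% of all genes (edgeR with TMM scaling), the median log2 change was 0.11 against 0.01 over all genes, and 16 genes had a larger log2 change than SFRP1. The study chose these genes on the same samples, by exon usage, so their counts are not independent evidence of a direction.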

How the data were processed

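Per the file headers, the authors counted fragments per exon part with featureCounts 1.5.2 (both mates mapped, strand ignored), and these raw counts were deposited. Reads had been aligned with Bowtie2, which does not split reads over introns, to Gallus gallus 5.0, and a fragment was assigned to 1 part, so fragments that cross junctions or several parts can be lost, short parts most of all. The signal values deposited by the authors are normalized counts, which the study made with DEXSeq, and their columns name the group but not the lane. Their usage coefficients and log2 fold changes hold the authors' own comparisons and were not used.

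Lanes of a group were summed if chi-square per degree of freedom, over genes, stayed below 1.1. Gene counts are sums over exon parts. Abundance and usage were tested over the whole table in edgeR 4.0.16 (R 4.3.3) by quasi-likelihood, at a Benjamini-Hochberg adjusted p below 0.1. These fits used TMM and features with at least 10 counts over the libraries. The ratio of last exon parts was tested by quasi-likelihood at the same threshold, without TMM, in the 835 genes with at least 100 counts in each part. Both parts had to be at least 75 bases long, and identifiers that combine overlapping genes were left out. DESeq2 1.42.0 served for its own test and for the model of DEXSeq, and data.table version 1.17.8 read the tables. Python 3.11.15 was used for the rest, with numpy 2.4.6, pandas 2.3.3 and scipy 1.17.1, and figures with matplotlib 3.10.9. The edgeR fits were run on simulated counts with known changes, larger than those of SFRP1 in gene abundance, usage and the ratio of parts. This run therefore does not bear on the calls of those values, and the model of DEXSeq was not simulated. Depth was 20951322 and 20861872 counts (control) and 15388474 and 16991925 counts (alcohol), and 3 counts correspond to 0.143 to 0.195 CPM.

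The genes named were SFRP1 with its 12 parts, its neighbors in the count table and the 5 genes of most similar pattern, of which 2 without names were printed. The gene, the lists and the tests were chosen with earlier results of these data known. Alternatives were other scalings, filters and tests, every lane as a library, and leaving out each lane. No sequence is printed.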

Additional observations from a re-analysis of the deposited data

How the results depend on the processing

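The log2 rise of SFRP1 kept its direction in all 13 alternatives run and its call in 8 of the 10 that had a test (the exceptions were the TMM factors of the exon parts, 0.26, and the sum without part 2, 0.12). The 3 parts with the authors' normalized counts gave 0.25, with no test. The number of SFRP1 parts called for usage was 1 and became 2 with every lane a library (parts 1 and 8) and with at least 10 counts in every library (parts 1 and 8), 3 with the model of DEXSeq and every lane a library, and 0 with that model on summed lanes and without a filter (parts 1 and 8 had an unadjusted p under 0.05 in both), and it was 0 to 1 when a control lane was left out. The number called for abundance was 1 and became 6 with library size alone, 3 without mitochondrial genes, 2 with every lane a library, 2 with at least 10 counts in every library and 3 with the TMM factors of the gene counts. The abundance change of part 1 reversed to 0.38 with library size alone, 0.11 without mitochondrial genes and 0.021 with the factors of the gene counts. Usage values that were not called reversed for part 3 (-0.34 to 0.93 when a lane was left out), part 6 (-0.031 to 0.37) and part 7 (-0.66 to 0.17, and 0.12 without part 2). The ratio of parts 1 and 2 kept direction and call in all 4 alternatives (edgeR adjusted p 9.4e-04 to 0.0782). The highest was for at least 1000 counts a part. Without parts under 75 bases, the share of part 2 was 71.6% in control, 78.2% in alcohol (no test). The cause of these changes was not tested.

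Over all features, 4917 genes were called, 7826 with library size alone, 7747 with every lane a library and 1747 with DESeq2. Parts called for usage were 4590, with 9125 for every lane a library, 2729 with no filter, 414 with the model of DEXSeq on summed lanes, and 1960 to 2139 without a control lane. Parts called for abundance were 13888, with 31872 for library size alone and 4564 with DESeq2. Of the called genes 57.2% were higher, against 92.3% with library size alone, 72.2% without mitochondrial genes and 23.6% with the TMM factors of the exon parts, and of the called parts 40.1% were higher, against 95.5%, 82.5% and, with the factors of the gene counts, 72.3%. Last exon pairs called were 101, with 171 for every lane a library, 18 with at least 1000 counts in each part, and 50 to 57 without a control lane. The alternatives with the TMM factors of another table, the model of DEXSeq with every lane a library, and all those on last exon pairs were chosen after seeing the data.

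No paired analysis was possible because the groups share fewer than 2 lane numbers, and replicate numbers were given in order of deposit. Leaving out an alcohol lane left 1 library a group, so those fits of abundance and usage gave values and no test. The ratio of last exon parts was not fitted without an alcohol lane. Alternatives for the list of Wnt genes were not run, since its symbols could not be paired with identifiers, nor were part calls with the authors' size factors, whose columns name no lane. The depth limits parts 3, 6, 7 and 12, at 13 to 52 counts over the lanes.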
